A study of Mus musculus with 26 samples.

Results

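CC chemokine ligands are small secreted proteins that draw leukocytes into tissue. The 10 members described here were chosen by gene symbol (Ccl2, Ccl3, Ccl4, Ccl5, Ccl6, Ccl7, Ccl9, Ccl17, Ccl22 and Ccl24) from a table of 23420 symbols, and all 10 passed the filter on low values. RNA had been sequenced from mouse antigen-presenting cells sorted by flow cytometry, in 26 libraries that form 10 groups of 5 cell types and 2 genotypes. The mutant mice are labelled mTORΔAPC, here KO, and the controls are wild-type littermates, here WT. Both genotypes were taken at steady state for CD8a dendritic cells (DCs) of the spleen (2 WT and 2 KO libraries), CD11b DCs of the spleen (2 and 2), CD11b+ DCs of the lung (3 and 3) and alveolar macrophages of the lung (3 and 3). Inflammatory DCs (3 and 3) came from lungs of mice of both genotypes given house dust mite extract into the nose 3 times a week, at day 17 by the sample labels and day 18 by the protocol. Cell type and treatment therefore cannot be told apart for inflammatory DCs. The labels name neither the promoter that drives the deletion nor the age of the mice, and do not say whether libraries come from separate or pooled animals. P-values then measure only the spread between these libraries, which may be technical.

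As background, mTOR is a kinase that couples nutrient and growth factor signals to cell growth and metabolism, and the label says that it was deleted in antigen-presenting cells. Each CC ligand acts through a small set of receptors. Ccl2 and Ccl7 recruit monocytes through CCR2. Ccl3, Ccl4 and Ccl5 attract T cells, monocytes and other cells, Ccl3 and Ccl5 in part through CCR1. Ccl6 and Ccl9 are rodent ligands made largely by myeloid cells, with CCR1 as a receptor. Ccl17 and Ccl22 attract T cells that carry CCR4, among them T helper 2 and regulatory T cells, and Ccl24 attracts eosinophils through CCR3. In the lung, DCs and macrophages are major sources of these proteins in allergic inflammation.

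Most members lie in a cluster on mouse chromosome 11 (GRCm38/mm10, GENCODE M21). Ccl2 (chr11:82035571-82037453, plus strand) and Ccl7 (chr11:82045712-82047525, plus) are 8.3 kb apart. Ccl5 (chr11:83525778-83530518, minus), Ccl9 (chr11:83572919-83578636, minus), Ccl6 (chr11:83587882-83593087, minus), Ccl3 (chr11:83647844-83649355, minus) and Ccl4 (chr11:83662584-83664683, plus) follow further along, with 9.2 kb between Ccl9 and Ccl6. Ccl22 (chr8:94745590-94751699, plus) and Ccl17 (chr8:94810453-94812036, plus) are neighbours 58.8 kb apart on chromosome 8, and Ccl24 (chr5:135569937-135573049, minus) stands alone on chromosome 5. All are protein-coding genes, and the values below count reads over whole genes. In this annotation Gm17268 overlaps Ccl2 and E230016K23Rik overlaps Ccl6. The longest stretch of identical transcript sequence between any pair of members was 25 bases, between Ccl6 and Ccl9.

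The bases just before the transcription start are shown for 3 members: the neighbours Ccl6 and Ccl9, of which Ccl9 changed most in KO alveolar macrophages, and Ccl17, whose level set the lung apart from the spleen. They come from RefSeq (GRCm38.p6), which held promoters of 5 of the 10 members (Ccl3, Ccl6, Ccl9, Ccl17 and Ccl22). Each line ends at the base before the start, 160 bases in all, and capitals mark a match on either strand to the kappaB consensus, to TTCNNNNGAA (the STAT6 site) or to AGGAAG (the core of PU.1 sites).
Ccl6, chr11:83593088-83593247, minus strand: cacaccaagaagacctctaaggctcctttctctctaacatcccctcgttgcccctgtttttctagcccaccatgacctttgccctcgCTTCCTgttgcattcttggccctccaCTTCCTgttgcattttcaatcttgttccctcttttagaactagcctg
Ccl9, chr11:83578637-83578796, minus strand: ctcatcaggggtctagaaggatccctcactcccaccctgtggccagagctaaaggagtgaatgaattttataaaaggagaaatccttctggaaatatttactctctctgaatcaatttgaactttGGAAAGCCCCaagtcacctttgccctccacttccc
Ccl17, chr8:94810293-94810452, plus strand: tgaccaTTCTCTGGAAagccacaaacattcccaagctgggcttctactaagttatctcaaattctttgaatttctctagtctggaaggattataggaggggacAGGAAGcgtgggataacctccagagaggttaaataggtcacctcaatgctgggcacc
The Ccl6 window held AGGAAG, read on the opposite strand, at 2 places, 73 to 68 and 47 to 42 bases before the start. The Ccl9 window held a kappaB consensus match 35 to 26 bases before the start and no match to AGGAAG. The Ccl17 window held the STAT6 site 154 to 145 bases before the start and AGGAAG 57 to 52 bases before it. Among 32851 promoters searched over 250 bases before the start, 7.25% held the kappaB consensus, 5.85% the STAT6 site and 29.5% AGGAAG. The interferon-stimulated response element GAAANNGAAA, found in 2.98% of the promoters, matched none of the 5 members. The Ccl6 and Ccl9 windows of 300 bases around the start aligned over 74 columns, of which 59 were identical (79.7%), and the rest of both windows was left unaligned. These matches describe letters and not bound sites.

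The libraries held 7.37 to 14.1 M reads, with 12992 to 14407 genes above 0. Values are counts that the authors normalized for library size. Mtor, the targeted gene, was lower in every KO library than in every WT library of its cell type, but to different degrees. It stood at 54.2 against 405 normalized counts in spleen CD8a DCs and 89.1 against 360 in alveolar macrophages, but at 261 against 412 in lung CD11b DCs and 217 against 362 in inflammatory DCs, where it did not pass the test (adjusted p = 0.0668, limma). Markers set inflammatory DCs apart from the other DCs. Flt3, a growth factor receptor of DCs, stood at 7283 in WT spleen CD8a DCs, 2654 in lung CD11b DCs and 51 in alveolar macrophages. Inflammatory DCs had Flt3 at 129 and Zbtb46, a factor of conventional DCs, at 97, beside H2-Ab1 of MHC class II at 69978. The macrophage gene Lyz2 stood at 165082 in them. Chi3l3, 1 of 16 alveolar macrophage markers listed, stood at 911564, above the 273577 of alveolar macrophages. It made up most of the summed level of that list in inflammatory DCs, and its other markers are not given here. The lung CD11b DC libraries fell into a set with more detected genes (13876 to 14407: WT replicates 1 and 2, KO replicate 1) and a set with fewer (12992 to 13173: WT replicate 3, KO replicates 2 and 3), so the KO difference of each member in this cell type is also given within each set, and other lung CD11b DC values over all 6 libraries alone. Transcripts of Y-linked genes went with genotype in the spleen and in alveolar macrophages: their summed level was 0 to 2.3 in every WT library of these types and 660 to 3295 in every KO library. All 6 inflammatory DC libraries held them (1420 to 2523), while of the lung CD11b DC libraries KO replicate 1 did (1318). Xist, a transcript of female cells, was high beside them in some libraries. It stood at 3620 and 3092 in replicate 1 of KO spleen CD8a and CD11b DCs. In the KO alveolar macrophage libraries it was 572 to 2293. It was 1450 in KO lung CD11b DC replicate 1 and 718 in WT inflammatory DC replicate 1. Whether such libraries pool mice of both sexes was not tested. Genotype and the sex of the mice cannot be told apart in the spleen and in alveolar macrophages, nor house dust mite and sex in wild type.

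In wild-type mice the ligands together took a larger share of the transcripts in the lung than in the spleen. In alveolar macrophages this rested on Ccl6. Of all normalized counts, the 10 members together took 0.0307% in CD8a DCs of the spleen (n = 2) and 0.0732% in its CD11b DCs (n = 2). Among lung cells the share was 0.262% ± 0.0471 (SD, n = 3) for CD11b DCs, 0.454% ± 0.0153 for alveolar macrophages and 1% ± 0.0499 for inflammatory DCs. Per kb of exon, so that genes can be compared, Ccl5 led in both spleen types, with 62.9% of the members' summed level in CD8a DCs and 55.9% in CD11b DCs. Lung CD11b DCs had no such leader: Ccl4 held 21.0%, Ccl17 20.3%, Ccl6 15.6% and Ccl22 14.9%. Ccl6 alone held 89.4% in alveolar macrophages and 67.6% in inflammatory DCs. Without Ccl6 the members took 0.0231% to 0.031% of all normalized counts in WT alveolar macrophages. The range was 0.0232% to 0.0276% in WT spleen CD8a DCs and 0.0604% to 0.0689% in WT spleen CD11b DCs. It was 0.144% to 0.247% in WT lung CD11b DCs and 0.219% to 0.249% in WT inflammatory DCs. In bulk samples, fewer cells of a type that makes a ligand and less of its RNA per cell cannot be told apart.

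**Figure D1:**
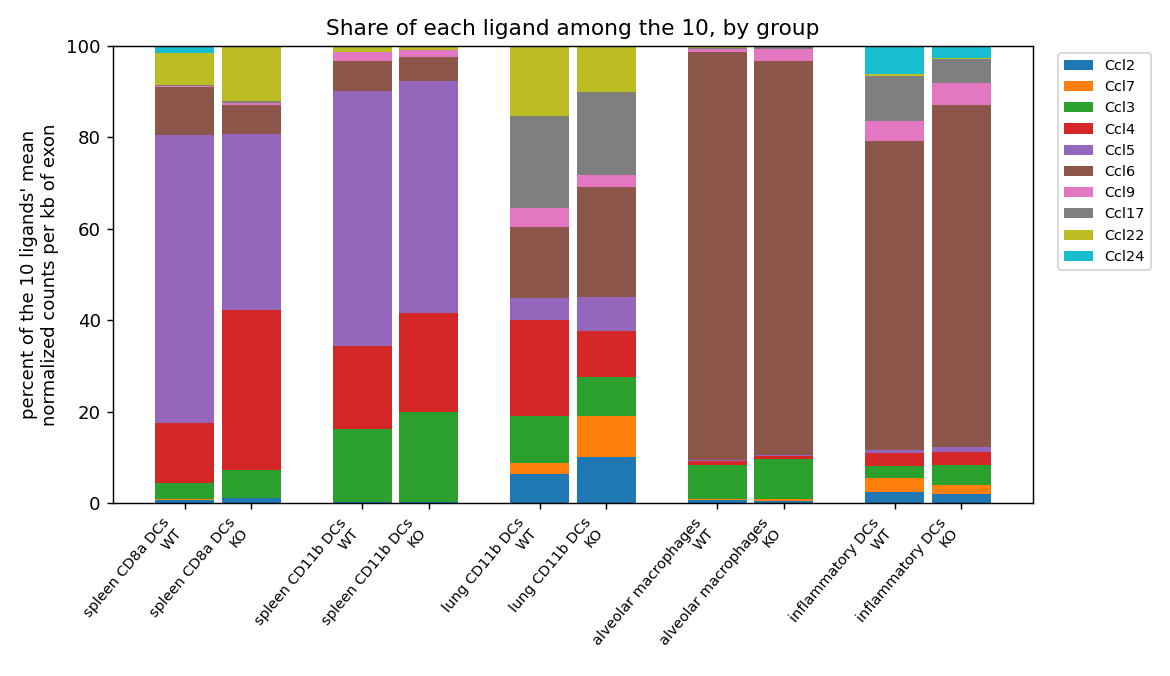
Stacked bars show the share of each ligand (percent) among the 10, from group means of normalized counts per kb of exon, for WT and KO of each cell type. Ccl5 takes the widest part in WT spleen DCs (62.9% and 55.9%), Ccl6 in WT alveolar macrophages (89.4%) and WT inflammatory DCs (67.6%), and WT lung CD11b DCs are split among several ligands.

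The WT levels were compared for 5 pairs of cell types by limma on log2(normalized count + 1), with p-values adjusted over the 13311 genes tested and called under 0.05. Lung CD11b DCs were higher than spleen CD11b DCs for 9 of 10 members and lower for Ccl5, where 21.1% of all genes were called higher and 13.8% lower. The median difference of the members was 3.35 on the log2 scale, beside 0.01 for all genes. Alveolar macrophages were lower than lung CD11b DCs for 8 members (27.2% of all genes) and higher for Ccl6 (24% of all genes). Inflammatory DCs were higher than alveolar macrophages for 9 members, with 20.1% of all genes called higher and 14.7% lower. Inflammatory DCs were higher than lung CD11b DCs for Ccl6, Ccl7, Ccl9 and Ccl24 (23.7% of all genes) and lower for Ccl4, Ccl5 and Ccl22 (23.8% of all genes). Spleen CD8a DCs were lower than spleen CD11b DCs for Ccl3, Ccl4, Ccl5 and Ccl9 (10.8% of all genes) and higher for Ccl22 and Ccl24 (12.2% of all genes). Between these spleen types the call was lost without WT CD8a replicate 1 (Ccl4, adjusted p = 0.0578, and Ccl22, adjusted p = 0.0561), WT CD8a replicate 2 (Ccl4, 0.0582; Ccl5, 0.0558; Ccl24, 0.298), WT CD11b replicate 1 (Ccl22, 0.0879; Ccl24, 0.0808) or WT CD11b replicate 2 (Ccl4, 0.0994; Ccl5, 0.0504; Ccl24, 0.124), while Ccl3 and Ccl9 kept it. These comparisons share groups of libraries and are not independent.

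**Figure D2:**
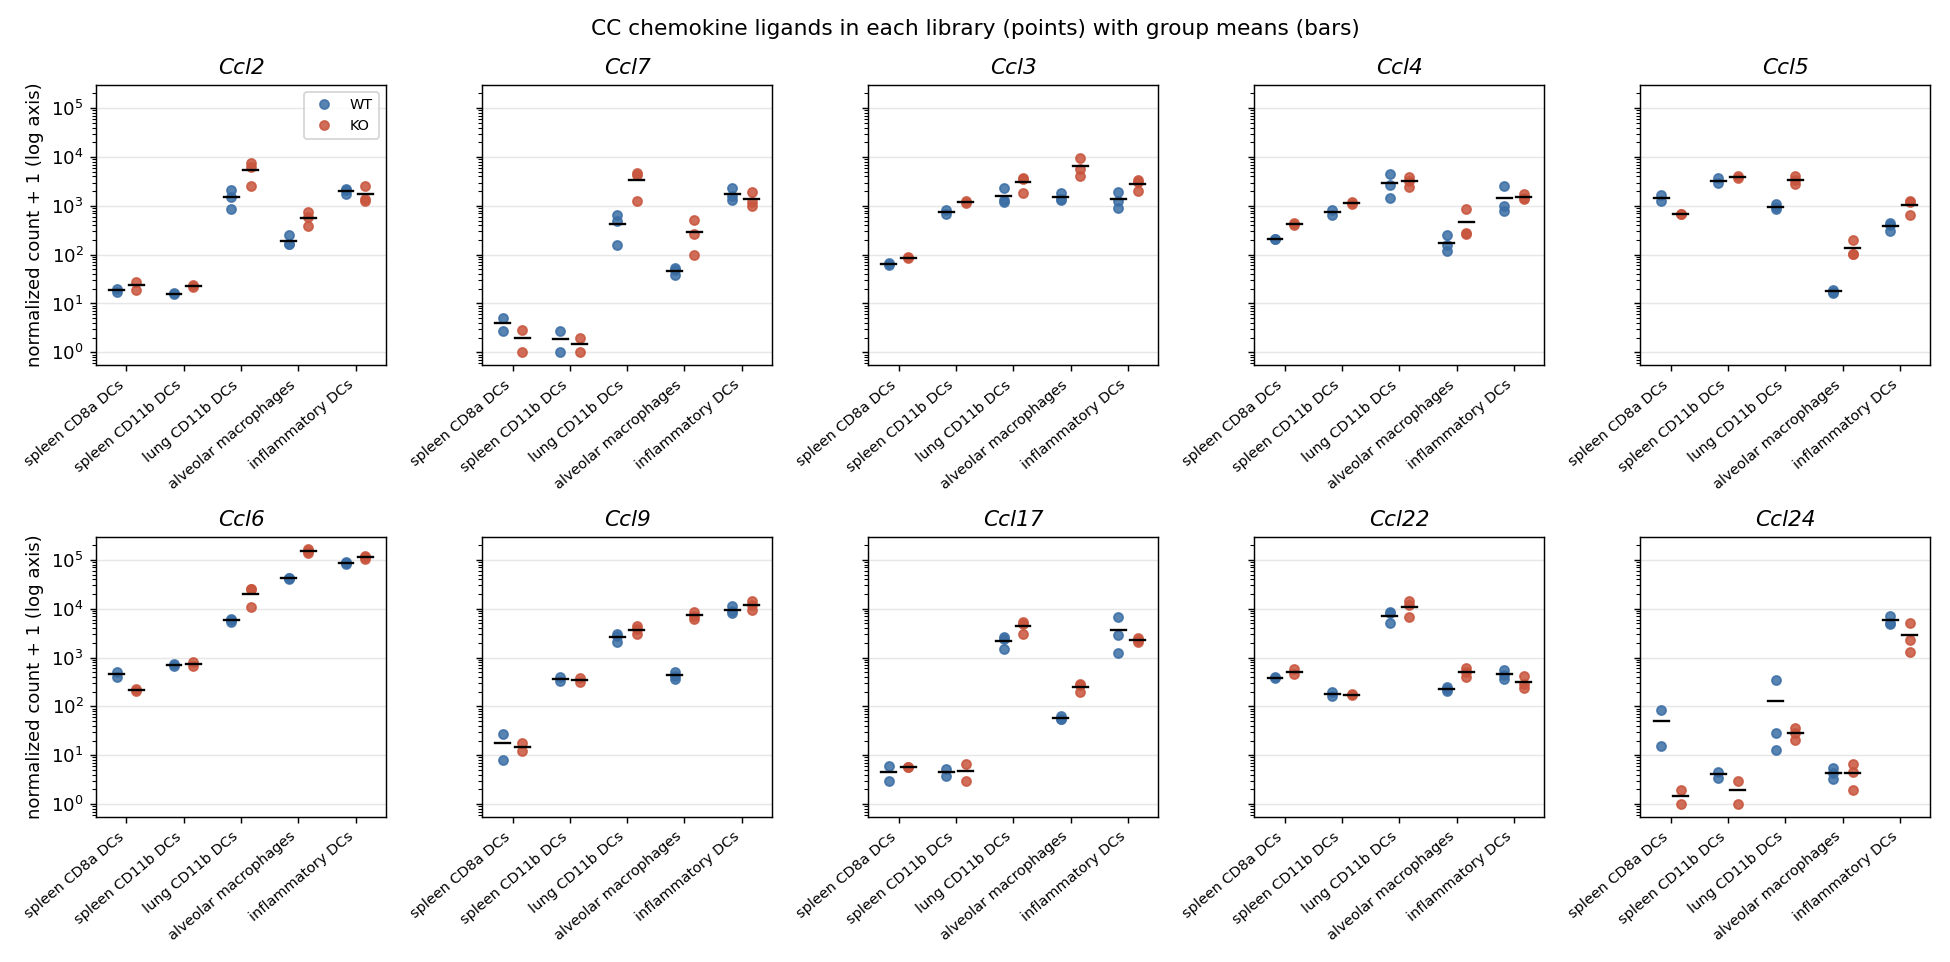
Each point is the normalized count plus 1 (log axis) of a ligand in a library, by cell type, with WT in blue and KO in red, and black bars show group means. In alveolar macrophages every KO point lies above every WT point for each ligand but Ccl24, while in inflammatory DCs most KO and WT points mix.

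KO against WT gave a different count of called members in each cell type. In alveolar macrophages 9 of 10 members rose and none fell, beside 10.5% of all genes called higher and 6.39% lower. The count was 7 with a pseudocount of 0.25, which lost Ccl4 and Ccl7, and 8 without the filter, with quantile normalization or with only the libraries compared, which lost Ccl4. The median of the members was 1.92 on the log2 scale, beside 0.02 for all genes. In lung CD11b DCs 5 members rose (Ccl2, Ccl3, Ccl5, Ccl6 and Ccl7) and none fell, with 12% of all genes higher and 14% lower, and a median of 0.96 beside -0.05. In a limma fit of only the libraries compared, Ccl5 and Ccl6 kept the call. Ccl2 (adjusted p = 0.0943), Ccl3 (0.199) and Ccl7 (0.0692) lost it. With a term for the library set, chosen after the data were seen, 6 rose: Ccl3 was lost and Ccl17 and Ccl22 were gained. By edgeR Ccl24 was called lower there (-2.14, adjusted p = 0.049). In inflammatory DCs Ccl3 and Ccl5 rose (1.45% of all genes higher, 1.92% lower), and the median was 0.01 beside -0.02. With only the libraries compared, limma called neither Ccl3 (adjusted p = 0.218) nor Ccl5 (0.127). In spleen CD8a DCs Ccl5, Ccl6 and Ccl24 fell (3.63% of all genes lower, 1.5% higher), with a median of 0.15 beside 0. Limma on only the libraries compared called none of them (adjusted p = 0.173, 0.173 and 0.224). In spleen CD11b DCs limma called no member, at 1.28% of all genes higher and 0.233% lower, with a median of 0.05 beside 0. There edgeR and DESeq2 on recovered reads also called none, and of the members 0 had an unadjusted p under 0.05.

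**Figure D3:**
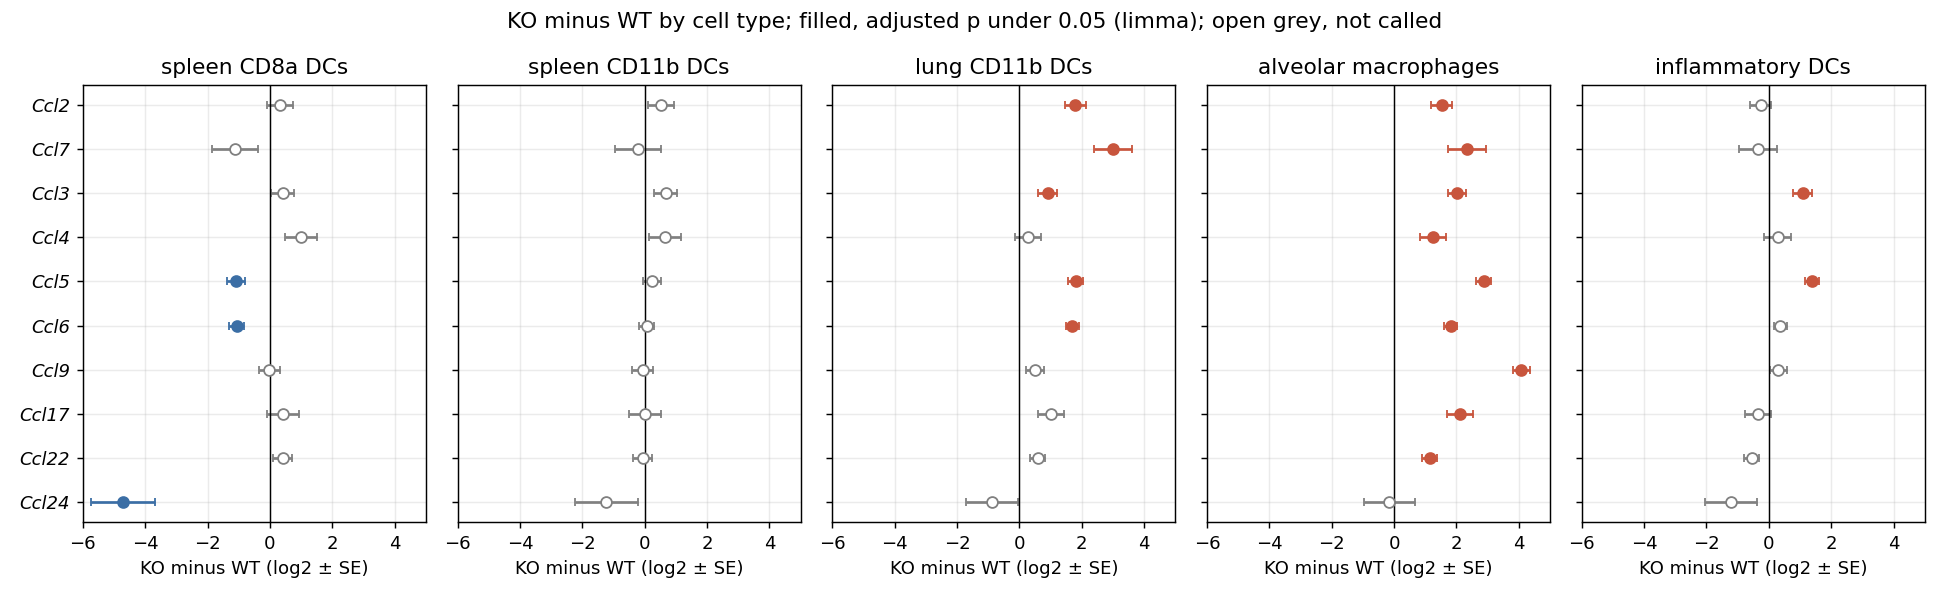
The difference KO minus WT (log2, with its standard error from limma) is plotted for each ligand in each cell type, filled where the adjusted p was under 0.05. The column of alveolar macrophages holds 9 filled points to the right of 0, lung CD11b DCs 5, inflammatory DCs 2, and spleen CD8a DCs 3 to the left.

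Ccl2, the main CCR2 ligand, was a lung gene. WT inflammatory DCs held 1770, 2193 and 2061 normalized counts and WT lung CD11b DCs 2069, 1542 and 869, and these overlapped (adjusted p = 0.236). WT alveolar macrophages followed with 166, 247 and 162, and the WT spleen libraries lay between 14.4 and 18.8. KO lung CD11b DCs held 2537, 7365 and 6165, all above WT, a rise of 1.79 ± 0.34 (log2 ± SE, 3.46-fold, adjusted p = 0.000472). The call was lost in a limma fit of only the libraries compared (adjusted p = 0.0943). The size differed between the library sets, a difference that was not tested. KO was 1.42-fold of WT among libraries with more detected genes (1 KO and 2 WT). It was 7.75-fold among those with fewer (2 KO and 1 WT). The KO library of the former set was also the only lung CD11b DC library that held Y-linked transcripts. KO alveolar macrophages held 381, 579 and 735, above every WT library, a rise of 1.53 ± 0.34 (2.9-fold, adjusted p = 0.00244). In inflammatory DCs the KO libraries (2605, 1412 and 1260) spread around WT, and the KO effect was 2.05 ± 0.49 lower on the log2 scale than in lung CD11b DCs (adjusted p = 0.00665), a difference that 6.95% of all genes showed in this direction.

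Ccl7, its neighbour and also a CCR2 ligand, moved with Ccl2. Its group means had a Pearson r of 0.99 with those of Ccl2 and 0.98 with those of Ccl17, on another chromosome. These values, over the 10 groups, describe groups that share cell types. The order of WT levels was inflammatory DCs (1311, 2355 and 1600), lung CD11b DCs (637, 487 and 158), alveolar macrophages (48, 53 and 36.9) and spleen (0 to 4.1), and no neighbours in this order overlapped. WT lung CD11b DCs gave 1245 reads against 2 in WT spleen CD11b DCs, a ratio of 459 (95% exact interval 127 to 3790, counting error only). KO lung CD11b DCs held 1226, 4759 and 4239, all above WT, a rise of 2.99 ± 0.61 (7.94-fold, adjusted p = 0.000809). This call was lost in a limma fit of only the libraries compared (adjusted p = 0.0692). Within the library sets KO was 2.2-fold and 28.3-fold of WT. KO alveolar macrophages held 95.6, 263 and 502, again all above WT (2.33 ± 0.61, adjusted p = 0.00805). Without KO replicate 3 the difference was 1.78 and was not called (adjusted p = 0.0711). In inflammatory DCs the groups overlapped (KO 1931, 1225 and 981).

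**Figure D4:**
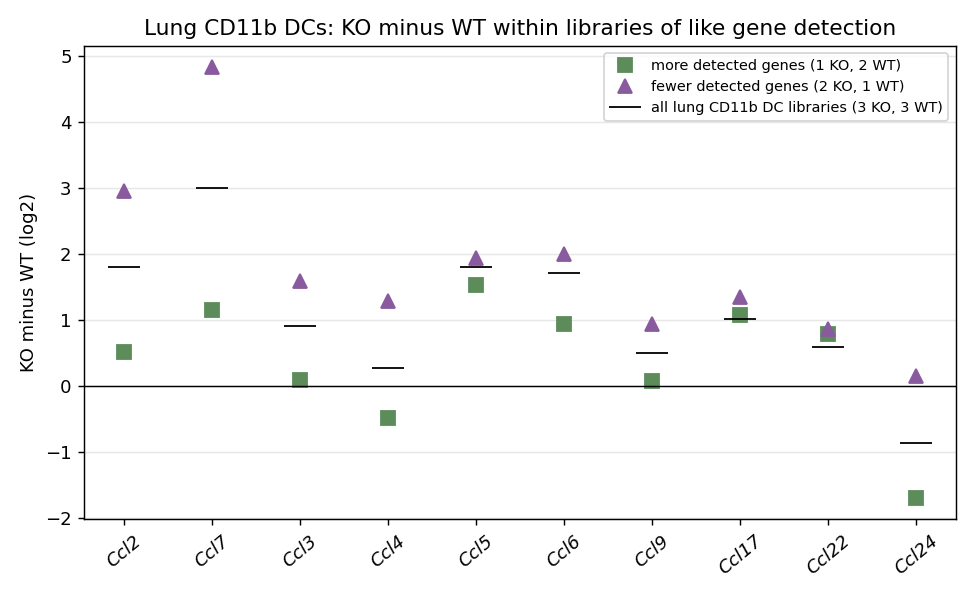
KO minus WT (difference of mean log2 normalized count plus 1) in lung CD11b DCs is plotted within the libraries with more detected genes (squares), within those with fewer (triangles) and over all 6 libraries (black dashes). Ccl5, Ccl17 and Ccl22 lie close together in both sets, while Ccl2 and Ccl7 are much higher in the set with fewer detected genes.

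Ccl3, a CCR1 ligand also known as MIP-1α, was nearly level across the lung types. WT lung CD11b DCs held 2283, 1343 and 1214, WT alveolar macrophages 1382, 1829 and 1312, and WT inflammatory DCs 1245, 889 and 1926, and all of these overlapped. Spleen CD11b DCs held 802 and 686, and CD8a DCs 67.7 and 60.8, 11.4-fold lower (adjusted p = 1.78e-07). KO alveolar macrophages rose to 9574, 5590 and 4135, all above WT (2.02 ± 0.3, 4.05-fold, adjusted p = 2.94e-05). KO inflammatory DCs held 3315, 1998 and 3107, also all above WT (1.09 ± 0.3, adjusted p = 0.0474), a call made in 6 of 16 alternatives and lost without WT replicate 1 or 2 or KO replicate 1 or 3 (adjusted p between 0.145 and 0.21). The rise in KO lung CD11b DCs (1866, 3737 and 3546, 0.91 ± 0.3, adjusted p = 0.0291) had overlapping groups. It was 1.07-fold among libraries with more detected genes and 3-fold among those with fewer, and was not called with a term for the library set (adjusted p = 0.0658) or without WT replicate 2 or 3 or KO replicate 2 or 3 (adjusted p between 0.1 and 0.128). WT lung CD11b DCs were above WT spleen CD11b DCs by 1.06 ± 0.34 (adjusted p = 0.0172), a call lost without WT lung replicate 1 (adjusted p = 0.0956) or either WT spleen library (0.0519 and 0.128).

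Ccl4 (MIP-1β), which attracts T cells and monocytes and lies 13.2 kb from Ccl3, followed another order. WT lung CD11b DCs were highest with 4513, 2706 and 1443, overlapping inflammatory DCs (795, 973 and 2518), which were called lower by 2.08-fold (adjusted p = 0.0417). Without WT lung CD11b DC replicate 1 that difference was -0.66 on the log2 scale (adjusted p = 0.237), and it was also lost without lung replicate 2 (0.0893) or inflammatory DC replicate 1 or 2 (0.209 and 0.144). Spleen CD11b DCs held 638 and 833, overlapping inflammatory DCs, spleen CD8a DCs 210 and 211, and alveolar macrophages 155, 252 and 119, so that the last 2 overlapped. KO alveolar macrophages held 866, 260 and 273, just above WT, a rise of 1.24 ± 0.42 (adjusted p = 0.0454). The difference dropped to 0.67 when KO replicate 1 was left out (adjusted p = 0.336), and the call was also lost without WT replicate 1 or 3 (adjusted p = 0.123 and 0.199). Lung CD11b DCs (2483, 3847 and 3203) and inflammatory DCs (1771, 1376 and 1418) of KO mice overlapped with WT. Within the lung sets KO was 0.711-fold and 2.43-fold of WT, in opposite directions.

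Ccl5 (RANTES), which binds CCR1, was the ligand with the most called KO changes, 4 of 5 cell types, and like Ccl6 it was called in both directions. WT levels ran from spleen CD11b DCs (2935 and 3642) over spleen CD8a DCs (1654 and 1240), lung CD11b DCs (1070, 858 and 953) and inflammatory DCs (309, 410 and 435) to alveolar macrophages (18.3, 15.5 and 16.3), and no neighbours in this order overlapped. KO alveolar macrophages held 101, 200 and 104, a rise of 2.87 ± 0.23 (7.32-fold, adjusted p = 3.87e-09). KO lung CD11b DCs rose to 2745, 4019 and 3352 (1.8 ± 0.23, 3.48-fold, adjusted p = 4.69e-06), 2.86-fold and 3.85-fold within the library sets. KO inflammatory DCs rose to 659, 1209 and 1261 (1.39 ± 0.23, adjusted p = 0.00143), a call lost in a limma fit of only the libraries compared (adjusted p = 0.127). In all 3 lung types every KO library lay above every WT library. In spleen CD8a DCs KO fell to 668 and 687 (-1.08 ± 0.29, adjusted p = 0.0256), below both WT libraries. The call was lost without WT replicate 1 (adjusted p = 0.2) or without either KO library (adjusted p = 0.15 and 0.125). KO spleen CD11b DCs held 3704 and 3986 (0.23 ± 0.29, adjusted p = 0.866). The KO effect was larger in lung than in spleen CD11b DCs by 1.57 ± 0.37 (adjusted p = 0.00709), where 5.86% of all genes were called in this direction. Without WT spleen CD11b replicate 2 it was 1.41 (adjusted p = 0.0531). The KO effect in spleen CD8a DCs minus that in spleen CD11b DCs was -1.31 ± 0.4 and was not called (adjusted p = 0.108, 2.25% of all genes called lower).

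Ccl6, a CCR1 ligand, had by far the highest level per kb in alveolar macrophages and inflammatory DCs. WT inflammatory DCs held 87571, 82881 and 90569 normalized counts, alveolar macrophages 43347, 43579 and 41245, lung CD11b DCs 5825, 5405 and 6305, spleen CD11b DCs 658 and 747, and spleen CD8a DCs 397 and 504. No neighbours in this order overlapped, and each step was called but the last (adjusted p = 0.0591), which DESeq2 called (0.0371). Under quantile normalization the first step, inflammatory DCs over alveolar macrophages, shrank from 1.03 to 0.15 and was not called (adjusted p = 0.663). KO alveolar macrophages rose to 164009, 149785 and 137476, far above WT (1.81 ± 0.2, 3.51-fold, adjusted p = 4.56e-07). This brought the 10 members together to 1.67% of all normalized counts, from 0.454% in WT. KO lung CD11b DCs rose to 10733, 25308 and 25020 (1.7 ± 0.2, 3.25-fold, adjusted p = 1.18e-06), with replicate 1 lower than the other two. The rise was 1.91-fold within the set with more detected genes and 3.99-fold within the set with fewer. In spleen CD8a DCs KO fell to 226 and 203 (-1.06 ± 0.24, adjusted p = 0.00866), a call that needed replicate 2 of both groups (adjusted p = 0.107 with the WT library left out and 0.101 with the KO library left out). KO inflammatory DCs held 119784, 104122 and 112841, all above WT, but the difference of 0.37 ± 0.2 was not called (adjusted p = 0.458). The KO effect there was 1.45 ± 0.28 lower on the log2 scale than in alveolar macrophages (adjusted p = 0.00149, 5.59% of all genes called lower). E230016K23Rik, which overlaps Ccl6 on the opposite strand, stood at 67.9 in WT and 371 in KO alveolar macrophages. Reads of the pair cannot be told apart without strand, which was not given in the sources used here.

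Ccl9, 9.2 kb from Ccl6 and also a CCR1 ligand, had the largest KO change of the members that were above 10 in every library of both groups. WT alveolar macrophages held 512, 421 and 371 and KO ones 7234, 8581 and 6303, a rise of 4.08 ± 0.28 (17-fold, adjusted p = 2.17e-10). These KO levels overlapped those of WT inflammatory DCs, which held 8229, 11360 and 9014. KO inflammatory DCs (11956, 14080 and 9571) overlapped with WT. In WT, lung CD11b DCs followed with 3000, 2752 and 2113, above alveolar macrophages, spleen CD11b DCs (392 and 335, overlapping alveolar macrophages) and spleen CD8a DCs (26.6 and 7.1). For lung CD11b DCs, KO libraries stood at 3018, 4333 and 3761, all above WT, but the difference of 0.5 ± 0.28 was not called by limma (adjusted p = 0.201) but was by DESeq2 (adjusted p = 0.0357), with folds of 1.05 and 1.91 within the library sets. The KO effect in alveolar macrophages exceeded that in lung CD11b DCs by 3.58 ± 0.4 (adjusted p = 1.39e-06, 10.2% of all genes called higher) and exceeded that in inflammatory DCs by 3.77 ± 0.4 (adjusted p = 7.33e-07). The neighbours Ccl6 and Ccl9 thus had rises of 3.51-fold and 17-fold in the same libraries, a difference between genes that was not tested.

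Ccl17 (TARC), a CCR4 ligand, was near absent from the spleen, at 1.9 to 5.7 normalized counts in all 8 spleen libraries. WT inflammatory DCs held 6908, 1249 and 2867, and overlapped WT lung CD11b DCs with 2578, 2438 and 1505 (adjusted p = 0.385). Without WT inflammatory DC replicate 2 they were higher by 1.07 (adjusted p = 0.0261). WT alveolar macrophages held 54.8, 61.8 and 54.2, 36.6-fold below lung CD11b DCs (adjusted p = 2.77e-10). KO alveolar macrophages rose to 278, 286 and 195 (2.11 ± 0.42, 4.32-fold, adjusted p = 0.000716), above every WT library and still below every lung CD11b DC library. The KO libraries of lung CD11b DCs held 5252, 4905 and 2980, all above WT (1.01 ± 0.42), and missed the threshold (adjusted p = 0.0783). The fold was 2.09 and 2.54 within the library sets, and 3 of 17 alternatives called it: the term for the library set (1.21, adjusted p = 0.0476), a pseudocount of 8 (0.0415) and edgeR (0.037). KO inflammatory DCs held 2296, 2537 and 2080, inside the WT spread.

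Ccl22 (MDC), the other CCR4 ligand, had a different distribution from Ccl17 (Pearson r of 0.63 over the 10 group means). WT lung CD11b DCs held 8531, 8085 and 5017, above all other WT types. WT inflammatory DCs (566, 366 and 439), spleen CD8a DCs (402 and 374), alveolar macrophages (243, 208 and 223) and spleen CD11b DCs (165 and 200) followed, with overlap between inflammatory and spleen CD8a DCs. Lung CD11b DCs stood 15.6-fold above inflammatory DCs (adjusted p = 1.21e-11), although these overlapped for Ccl17. KO alveolar macrophages rose to 616, 502 and 393 (1.14 ± 0.24, 2.2-fold, adjusted p = 0.00153), above every WT library. KO lung CD11b DCs (14257, 11961 and 6854, 0.59 ± 0.24, adjusted p = 0.0795) overlapped with WT, and the fold within the sets was 1.72 and 1.8. The difference was called with the term for the library set (0.82, adjusted p = 0.00862), by DESeq2 (0.61, adjusted p = 0.041) and with KO replicate 3 left out (0.9, adjusted p = 0.0086). KO inflammatory DCs held 291, 425 and 240 (-0.54 ± 0.24, adjusted p = 0.319). The KO effect there was 1.12 ± 0.34 lower on the log2 scale than in lung CD11b DCs (adjusted p = 0.0335, lost without any of 7 of the 12 libraries) and 1.68 ± 0.34 lower than in alveolar macrophages (adjusted p = 0.0024).

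Ccl24 (eotaxin-2), the CCR3 ligand, was abundant in inflammatory DCs alone. WT libraries of this type held 7225, 5147 and 4867 normalized counts, against 2.2 to 4.6 in WT alveolar macrophages. WT lung CD11b DCs held 11.9, 340 and 28.2, a spread set by replicate 2, and KO ones 19.4, 27.1 and 35.8 (-0.87 ± 0.83, adjusted p = 0.48), with folds of 0.307 and 1.1 within the library sets. KO inflammatory DCs held 2270, 5139 and 1279, with lower values in 2 libraries and overlap in the third, and the difference of -1.2 ± 0.83 was not called (adjusted p = 0.612). In spleen CD8a DCs the WT libraries held 14.6 and 84.1, and the KO libraries 0.9 and 0. Over each group that was 100 reads against 1, a ratio of 88.2 (95% exact interval 15.5 to 3520, counting error only), called lower by limma (adjusted p = 0.00519) but not by edgeR (adjusted p = 0.159). The call was lost when replicate 2 was left out of WT (adjusted p = 0.115) and when it was left out of KO (0.0796).

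The fall of Ccl5, Ccl6 and Ccl24 in KO spleen CD8a DCs went with markers of red pulp macrophages. Over all genes 3.63% were called lower there. Of 12 such markers 11 fell, among them Hmox1 (7002 to 421) and Spic (1725 to 59.7), and their summed level went from 34438 to 59206 in WT libraries to 5910 to 6555 in KO. None of the 12 was at 0 in every library of a group. Of 19 monocyte and macrophage markers 13 fell, with a sum of 25260 to 36889 in WT and 9125 to 10027 in KO. Ccr3, the receptor of Ccl24 and an eosinophil marker, fell from 1328 to 49.8. Epx and Mcpt8, which define eosinophils and basophils, were at 0 in all 4 libraries. The part of these cells in the ligand result was not tested.

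The rises in KO alveolar macrophages went with changes in markers of several cell types, their own included. Over all genes 10.5% were called higher and 6.39% lower there. Alveolar macrophage markers fell in 4 of 16 and rose in 1, with a sum of 377687 to 387241 in WT and 239579 to 262406 in KO. Chi3l3 alone, at the level given above, made up most of the WT sum, which therefore does not describe the list as a group. T cell markers rose in 7 of 11, and their summed level was 45.5 to 58.5 in WT and 160 to 256 in KO libraries. Lck, a kinase of T cells, stood at 4.5 and 38.6, and Cd3d at 0.4 and 10.8. Of 10 NK cell markers tested 4 rose, from a sum of 34.2 to 59.6 to one of 111 to 225 over 12 listed, and of 9 neutrophil markers tested 4 rose and 1 fell. Monocyte and macrophage markers rose in 8 of 19 and fell in 2, with Apoe from 1432 to 7882 and Ly6c2 from 9.2 to 204, while their sum was 281406 to 284453 in WT and 224718 to 238915 in KO. Mature migratory DC markers rose in 8 of 15 and fell in 2 (sum 10793 to 11670 in WT, 15933 to 19882 in KO). Eosinophil, basophil and mast cell markers rose in 2 of 5 tested (sum 29.8 to 32.5 in WT, 251 to 354 in KO), with Ear6 from 21.2 to 278 and Epx at 0 in all 6 libraries. Red pulp macrophage markers rose in 3 of 12 and fell in 2 (sum 71280 to 73184 in WT, 36004 to 42878 in KO). The part of these cells in the rises was not tested. In KO lung CD11b DCs, where 12% of all genes were called higher and 14% lower, none of 11 T cell or 10 NK cell markers was called. Of 19 monocyte and macrophage markers 6 rose and 3 fell (sum 120852 to 137777 in WT and 124309 to 176382 in KO), with Ly6c2 from 96.3 to 3209, and 6 of 12 DC markers fell and 1 rose. Markers of cDC2, the conventional DCs that carry CD11b, fell in 4 of 12 and rose in none, with a sum of 65906 to 72093 in WT and 26821 to 36751 in KO. Plasmacytoid DC markers rose in 3 of 10 (sum 1551 to 1919 in WT, 2674 to 3142 in KO). Their part in the ligand rises was not tested. In KO inflammatory DCs 0 of 19 monocyte and macrophage markers and 5 of 16 alveolar macrophage markers were called, all 5 lower (1.92% of all genes). The monocyte and macrophage sum was 255215 to 312191 in WT and 347867 to 414255 in KO, without overlap, and its part in the rises of Ccl3 and Ccl5 was not tested.

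Other genes of the chemokine system were read from lists. Of 14 other CC ligands listed, 4 were tested. Ccl12, a CCR2 ligand of the mouse, rose from 105 to 652 in lung CD11b DCs (2.56 ± 0.5, adjusted p = 0.000515) and from 5.6 to 26.4 in alveolar macrophages (2.11 ± 0.5, adjusted p = 0.00363), as did Ccl27a from 2.6 to 9 in the latter. None of the 4 was called in the other cell types. Among the CC receptors, Ccr7, which guides DCs to lymph nodes, rose in KO alveolar macrophages (56.1 to 137, adjusted p = 0.00054) and fell in KO inflammatory DCs (295 to 99.6, adjusted p = 0.000509). In KO lung CD11b DCs Ccr8 rose from 6.1 to 32.8 and Ccr9 from 17.1 to 52.2, and Darc, an atypical receptor, fell from 18.9 to 2.2.

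Lists of pathways known to act on chemokine genes were counted in the same way. For comparison, of all genes tested 12% were called higher and 14% lower with the deletion in lung CD11b DCs. These shares were 10.5% and 6.39% for alveolar macrophages, and 1.45% and 1.92% for inflammatory DCs. Among spleen cells the share called higher was 1.5% for CD8a DCs and 1.28% for CD11b DCs. Interferon response genes rose in 22 of 22 in KO lung CD11b DCs (median 3.16 on the log2 scale) and in 18 of 22 in KO alveolar macrophages (median 3.09). Ifit2 rose from 201 to 4431 in the former and Usp18 from 16 to 368 in the latter. The list counted 2 of 22 higher in spleen CD8a DCs and 1 of 22 in each of spleen CD11b DCs and inflammatory DCs. NF-kB pathway and feedback genes rose in 4 and fell in 3 of 20 in lung CD11b DCs, and rose in 5 and fell in 3 in alveolar macrophages, with list medians of -0.03 and -0.17. Among the latter Traf1 rose from 17.1 to 57.4 and Nfkbia, the inhibitor that NF-kB induces, fell from 13663 to 6835. STAT6 and type 2 response genes, a list that shares its theme with Ccl17, Ccl22 and Ccl24, rose in 4 and fell in 5 of 19 in lung CD11b DCs, rose in 5 and fell in 1 in alveolar macrophages, and fell in 5 in inflammatory DCs. Retnla, a marker of alternatively activated macrophages, fell from 3782 to 482 in the last. Whether any list acts on the ligands was not tested.

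The genes whose group means were most like each member's are a description over 10 group means that share cell types. Ccl6 was most like Cd68, a macrophage protein of lysosomes (Pearson r of 0.995), and Ccl9 like Cd93 (0.966). Ccl2 was most like Edem1 (0.985), Ccl7 and Ccl17 like Atp2b1 (0.994 and 0.984), and Ccl3 like Plaur (0.952). Ccl4 was most like Il1b, an inflammatory cytokine (0.965), Ccl5 like Fyb (0.967), Ccl22 like Tnfsf11 (0.952) and Ccl24 like Cox8a (0.959). Among the members the highest value was 0.99, for Ccl2 with Ccl7 and with Ccl17, and the lowest was -0.53, for Ccl5 with Ccl6.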

How the data were processed

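Per the labels' protocols, RNA from sorted cells (RNeasy Micro kit) was amplified with a Clontech kit and made into libraries with Nextera XT. Per the submitters' processing notes, the tools were STAR 2.3.1s, HTSeq and DESeq2 1.10.1, with mm10. Annotation and strandedness are not given in the sources used here. Values as deposited are a signal: the authors divided each library's read counts by a DESeq2 size factor. Whole reads were recovered from the steps between values (100% whole within 1e-06).

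Genes at 10 or more in at least 2 libraries were tested: 13311 of 23420 symbols. One limma 3.58.1 fit (R 4.3.3) of log2(value + 1) over all 26 libraries, with a mean per group and a trended prior, gave every contrast. P-values were adjusted by Benjamini-Hochberg within each contrast and called under 0.05. Folds are 2 to the power of the log2 difference, which understates changes of low genes. edgeR 4.0.16 and DESeq2 1.42.0 on recovered reads, other pseudocounts, filters, scalings, sample weights and fits with a library left out were alternatives. Scripts were tested on simulated data, where the share of false calls exceeded the nominal threshold in each simulated comparison.

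The members and gene lists were chosen with earlier results of these data known. Named genes are all members, the targeted gene, up to 4 called genes with the smallest p per list and comparison, and, for each member, the 3 genes with the highest Pearson r over group means, of which the first is printed. Markers given in the check of the labels, and those given at 0, were chosen after their values were seen. Gene lengths and positions came from GENCODE M21. Intervals and ratios of reads cover counting error only. One item is not reported here.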

Additional observations from a re-analysis of the deposited data

Results flagged for a closer look

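For 15 pairs of effects, the difference between the KO effects of 2 cell types itself passed the test (limma interaction contrast, log2 scale, adjusted p under 0.05). Of all genes, 5.86% were called higher for lung minus spleen CD11b DCs, and 10.2% for alveolar macrophages minus lung CD11b DCs. For inflammatory DCs, 6.95% were called lower against lung CD11b DCs and 5.59% against alveolar macrophages. KO was above WT by more in lung than in spleen CD11b DCs for Ccl5 (1.57 ± 0.37, adjusted p = 0.00709), Ccl6 (1.63 ± 0.31, adjusted p = 0.0018) and Ccl7 (3.21 ± 0.96, adjusted p = 0.0301). The Ccl7 difference rests on a spleen side of 2 reads or fewer per library and was not called by edgeR (adjusted p = 0.719) or DESeq2 (adjusted p = 0.21). Alveolar macrophages exceeded lung CD11b DCs in the KO effect for Ccl5 (1.07 ± 0.33, adjusted p = 0.0278) and Ccl9 (3.58 ± 0.4, adjusted p = 1.39e-06).

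The KO effect in inflammatory DCs minus that in lung CD11b DCs was -2.05 ± 0.49 for Ccl2 (adjusted p = 0.00665), -1.33 ± 0.28 for Ccl6 (adjusted p = 0.00275), -3.35 ± 0.86 for Ccl7 (adjusted p = 0.0115) and -1.12 ± 0.34 for Ccl22 (adjusted p = 0.0335). Minus that in alveolar macrophages it was -1.8 ± 0.49 for Ccl2 (adjusted p = 0.0222), -1.48 ± 0.33 for Ccl5 (adjusted p = 0.00502) and -1.45 ± 0.28 for Ccl6 (adjusted p = 0.00149). It was -3.77 ± 0.4 for Ccl9 (adjusted p = 7.33e-07), -2.46 ± 0.59 for Ccl17 (adjusted p = 0.00925) and -1.68 ± 0.34 for Ccl22 (adjusted p = 0.0024). These contrasts share libraries. Leaving out 1 library ended the call for Ccl7 between lung and spleen (5 of 10 libraries, adjusted p up to 0.182), Ccl5 there (WT spleen CD11b replicate 2, adjusted p = 0.0531) and Ccl5 between alveolar macrophages and lung CD11b DCs (5 of 12, up to 0.096). It also did for Ccl22 between inflammatory and lung CD11b DCs (7 of 12, up to 0.101) and Ccl2 between inflammatory DCs and alveolar macrophages (7 of 12, up to 0.0702). KO over WT of Mtor was 0.6 in inflammatory DCs, 0.615 in lung CD11b DCs and 0.247 in alveolar macrophages. Its part in these differences was not tested. Y-linked transcripts went with genotype in the spleen and in alveolar macrophages. They did not in inflammatory DCs, where every library held them, and in lung CD11b DCs only KO replicate 1 did. Where a difference involves the spleen or alveolar macrophages, the KO effect and the sex of the mice therefore cannot be told apart.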

How the results depend on the processing

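Of 2640 values of members under other settings, 84 changed sign, none of them called in either setting, and 117 lost and 25 gained a call. In inflammatory DCs the 2 called members became 1 with a pseudocount of 0.25, without the filter, with quantile normalization, with sample weights and with edgeR. The 2 members whose KO effect was higher in alveolar macrophages than in lung CD11b DCs became 1 with a pseudocount of 8, with quantile normalization and with edgeR. For spleen CD8a against spleen CD11b DCs the KO effects differed for 0 members, for 1 with sample weights and for 2 with DESeq2 (Ccl5 and Ccl6). For inflammatory against lung CD11b DCs the 4 became 2 with sample weights. Fits of only the libraries compared, which have fewer samples, called 0 members in KO spleen CD8a DCs, 2 in lung CD11b DCs, 0 in inflammatory DCs, 2 between WT spleen types and 1 in each of the lung against spleen CD11b, alveolar macrophage against lung and inflammatory against lung differences. They called 0 of all genes in both spleen types and in inflammatory DCs, where edgeR on all libraries called 139 higher and 398 lower in spleen CD8a DCs.

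Leaving out 1 library gave 0 to 2 called members in KO spleen CD8a DCs (0 without KO replicate 2, 1 without WT replicate 2), 3 to 4 between the WT spleen types, 1 to 4 for lung against spleen CD11b, 1 to 3 for alveolar macrophages against lung CD11b DCs and 1 to 2 in KO inflammatory DCs. The lone library of a spleen group was then assumed to vary like the other groups. Over all genes, spleen CD11b DCs had 171 higher and 31 lower calls, but 27 and 2 without KO replicate 2, 448 and 204 with sample weights, and 275 and 86 with DESeq2. Sample weights gave 896 and 1001 in place of 1602 and 1869 in lung CD11b DCs, and 2503 and 2006 in place of 1397 and 850 in alveolar macrophages. Quantile normalization moved the median of all genes in WT lung against spleen CD11b DCs by -0.121. The term for lung libraries with fewer detected genes was chosen after seeing the data. The numbers in the labels run through all libraries and are not shared between groups. They therefore name no pairs, and no paired analysis was made. In KO the 2 spleen types were alike by replicate. Replicate 1 held Y-linked sums of 977 in CD8a and 932 in CD11b DCs, with Xist at 3620 and 3092. Replicate 2 held 3049 and 3295, with Xist at 12 and 21.4. Whether these came from the same mice was not tested, and the contrasts treated them as separate. At 2 to 3 libraries a group, low members such as Ccl24 and Ccl7 in the spleen are limited by counting.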

Other observations

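Ccl8, a ligand of CCR8 and CCR2, was picked after its values were seen. It stood at 3211, 5382 and 18114 normalized counts (lowest, median, highest) in WT inflammatory DCs and at 1862, 3581 and 4056 in KO. Lung CD11b DCs held 11.6 to 25 in WT and 23.3 to 131 in KO, and WT alveolar macrophages 1.1 to 7.6, so that this ligand, like Ccl24, was high in the cells taken after house dust mite.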
